A study of Homo sapiens with 14 samples.

Results

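The 8 genes described here control the polyamines putrescine, spermidine and spermine. They were chosen by gene symbol (OAZ1, OAZ2, AZIN1, ODC1, AMD1, SRM, SMS and SAT1) from the 57820 genes of the tables. The rule uses no measured value, but the set was proposed with earlier results of these data known. The data came from HEK293T cells (293T in some labels), a line derived from human embryonic kidney, and were made to read newly made RNA by sequencing: cells were fed s4U, a uridine analogue, and acrylonitrile was used to modify the s4U in the purified polyadenylated RNA, so that it was read as C. There were 14 libraries in 7 groups of 2. In the conversion experiment the groups were untreated RNA (no s4U and no acrylonitrile), s4U RNA (s4U for 24 h, no acrylonitrile), acrylonitrile RNA (no s4U) and s4U plus acrylonitrile RNA (s4U for 24 h). The labels give 50 µM s4U for the s4U group and 500 µM for the s4U plus acrylonitrile group, whereas the protocol gives 50 µM for both, so a difference in dose cannot be told apart from the acrylonitrile step in contrasts between them. In the PDP experiment cells received 0, 4 or 8 µM PDP, an analogue of pyridostatin that binds G-quadruplexes, for 20 min before 500 µM s4U was added for 1 h, and all 6 RNA samples were treated with acrylonitrile. Nothing in the labels says whether the replicates were separate cultures, so the p-values reflect only how far the sequenced libraries of a group differ, which may be technical.

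Ornithine decarboxylase (ODC1) makes putrescine. Spermidine synthase (SRM) and spermine synthase (SMS) extend it with aminopropyl groups that S-adenosylmethionine decarboxylase (AMD1) provides, and spermidine/spermine acetyltransferase (SAT1) opens the way back. Antizymes (OAZ1, OAZ2) bind ornithine decarboxylase and deliver it to the proteasome, and antizyme inhibitor (AZIN1) binds antizyme in its place. Full-length antizyme is made only when ribosomes change reading frame at a stop codon, which polyamines favour.

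The frameshift sites are shown because they are the feature by which antizymes are regulated, and OAZ1 and OAZ2 share them. They were read from GRCh37 on the strand of each gene, 5′ to 3′, and lie in coding exons. Capitals mark the TGA of the site, whose first base the annotation leaves out of the coding sequence. The OAZ1 site is at chr19:2271430-2271459 on the plus strand and the OAZ2 site at chr15:64983697-64983726 on the minus strand.
OAZ1: cggtggtgctccTGAtgcccctcacccacc
OAZ2: ctgtggtgctccTGAtgcccctcacccact

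Libraries held between 6074118 and 22363992 fragments, of which 68.4% to 90.6% lay in genes. The libraries of 0 µM PDP held 9770956 and 10564894 fragments and those of 4 and 8 µM PDP 18373693 to 22363992. Of 7 markers of the HEK293-derived line, 6 were at 1 FPM (fragments per 1000000 fragments of the library) or more in every library, and INA ranged from 0.58 to 3.58 FPM. Their sum moved with the groups. It was 1910 to 1928 FPM in untreated RNA, 699 and 1205 FPM in the 2 libraries of s4U RNA, which stood apart from each other, 3099 to 3129 FPM in acrylonitrile RNA and 2501 to 2688 FPM in s4U plus acrylonitrile RNA. In the PDP experiment it was 3940 to 3969 FPM with 0 µM, 3245 to 3406 FPM with 4 µM and 3237 to 3297 FPM with 8 µM. None of 3 blood markers was at 1 FPM in every library and they summed to at most 0.644 FPM. Of 5 markers of the breast line MCF7, GATA3 alone was at 1 FPM in every library, and TFF1 and KRT19 did not exceed 0.165 and 0.102 FPM. The 4 liver markers summed to at most 0.939 FPM in the PDP experiment, to 5.75 to 12.7 FPM in untreated and s4U RNA, to 14.6 and 26.7 FPM in s4U plus acrylonitrile RNA and to 42.8 and 108.0 FPM in acrylonitrile RNA. Their part in the results below was not tested.

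Per length of exon (FPKM, over all annotated exons of a gene), OAZ1 was the most abundant of the 8 in untreated RNA, at 125 and 124 FPKM, followed by SRM at 83.5 and 82.3 FPKM. SMS (40.0 and 39.9 FPKM) and ODC1 (40.7 and 38.7 FPKM) overlapped. AMD1 was at 12.9 and 12.99 FPKM, followed by AZIN1 (9.91 and 11.3 FPKM) and SAT1 (8.52 and 8.93 FPKM), and OAZ2 was lowest at 5.13 and 5.12 FPKM. OAZ1 was above its relative OAZ2 in each of the 14 libraries. With 0 µM PDP, SRM (273 and 276 FPKM) was above OAZ1 (190 and 192 FPKM), and SAT1 was lowest at 0.66 and 0.95 FPKM. Only 16 and 25 fragments lay in SAT1 there, so its values in that group are imprecise. The order depended on the length used. Per length of the longest coding transcript, OAZ1 (mean 571 FPKM) was above SRM (413 FPKM) with 0 µM PDP. AZIN1 (1.84 FPKM) and SAT1 (1.91 FPKM) were then close. In untreated RNA AZIN1 (14.2 FPKM) was lowest on that length, below OAZ2 (20.3 FPKM). FPKM can be compared between genes of 1 library, and the 2 experiments are separate sets of libraries.

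**Figure D1:**
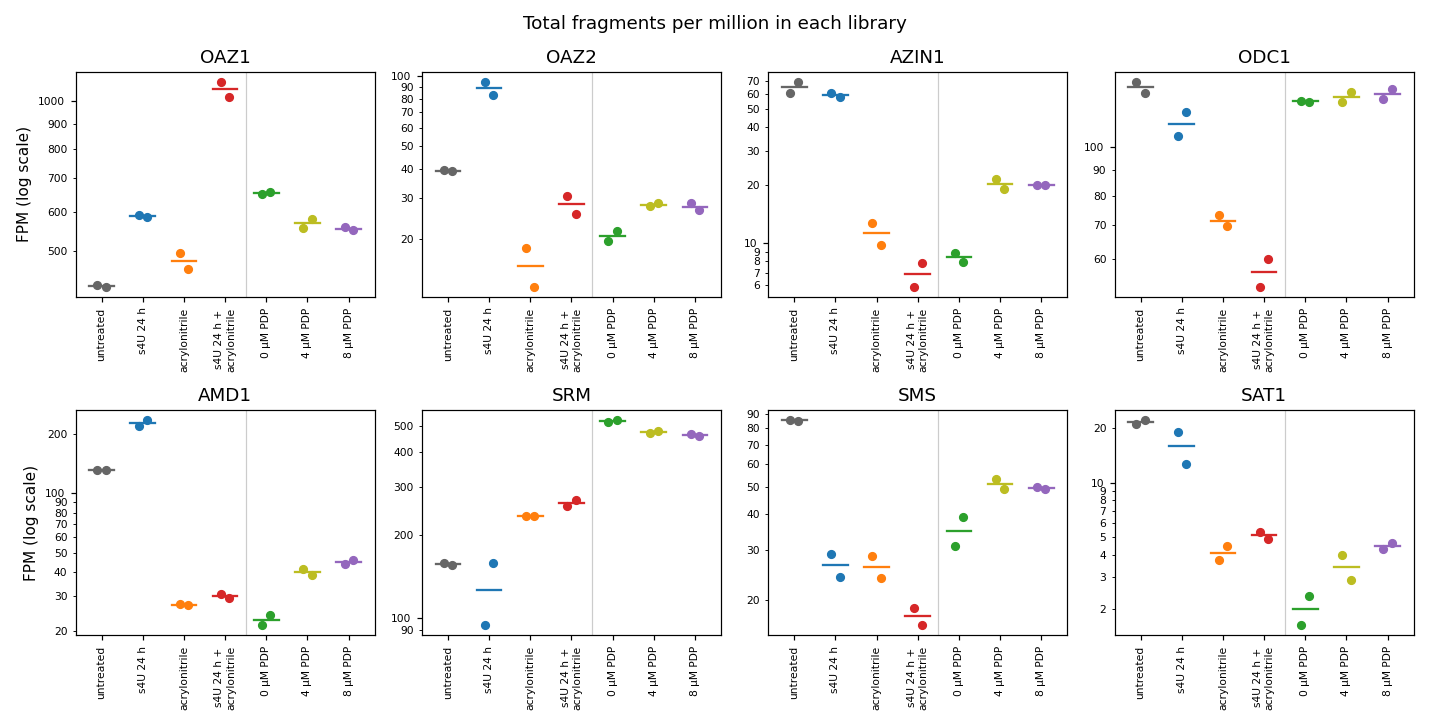
Total FPM of each gene (y axis, log scale, a scale per panel) in the 7 groups. Points are libraries, bars are means of 2 libraries, and the grey line separates the conversion experiment from the PDP experiment. Among acrylonitrile-treated libraries of the conversion experiment, OAZ1 was higher with s4U (1089 and 1017 FPM) than without (496 and 460 FPM).

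The share of fragments with at least 1 counted mismatch (marked fragments, which the study takes as T-to-C, although the tables do not name the type) was used to read how much of each mRNA had been made during labeling. In acrylonitrile RNA without s4U the OAZ1 share was 7.54% and 7.79%. After 1 h of s4U (0 µM PDP) it was 13.7% and 13.2%, and after 24 h 54.6% and 55.9%, with 95% Wilson intervals of 53.7% to 55.4% and 55.0% to 56.8%. These intervals cover counting error only. OAZ1 was the least marked of the 8 genes at 24 h, lower than SMS (66.9% and 62.4%) and SRM (80.3% and 79.5%). The other 5 genes were between 89.7% and 97.4% marked in both libraries. The median over 13786 genes that had 20 or more fragments in both libraries was 91.7%, and OAZ1 was at percentile 5.19.

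AMD1, which encodes a short-lived decarboxylase of the pathway, stood apart after 1 h. Its share was 51.9% and 54.3%, at percentile 96.4 of 13148 genes, whereas the other genes except SAT1 were between 10.3% and 18.9%. SAT1 was at 31.3% (95% Wilson interval 14.2% to 55.6%) and 36.0% on few fragments. AZIN1 had 0 marked of 59 fragments in 1 acrylonitrile library, which allows a share of up to 5.08% when the limit is set at 3 counts of the total (the upper 95% Wilson bound is 6.11%).

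**Figure D2:**
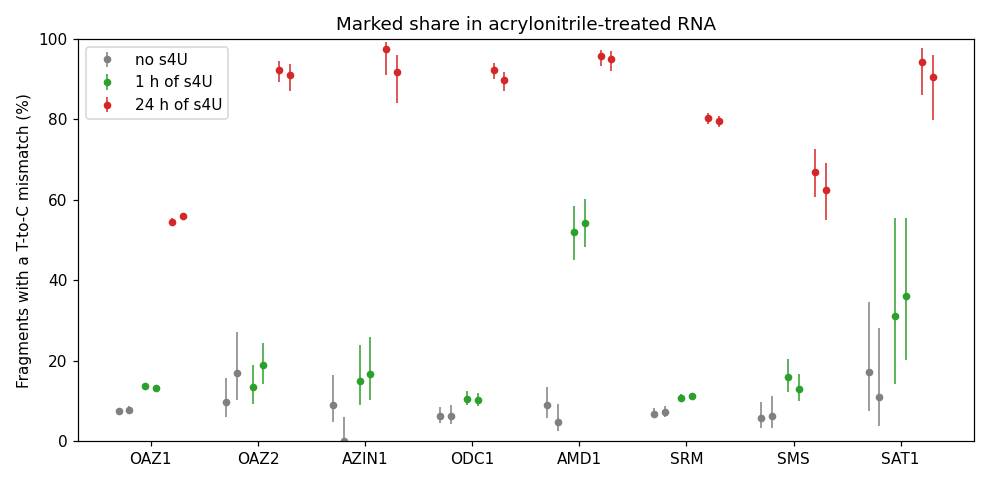
Percent of fragments with a counted mismatch (y axis) in acrylonitrile-treated RNA without s4U, after 1 h and after 24 h of s4U. Points are libraries and bars are 95% Wilson intervals of counting error. AMD1 is the gene far above the rest at 1 h, and OAZ1 is the least marked at 24 h.

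The marked share was tested against that of acrylonitrile alone (edgeR quasi-likelihood test with Benjamini-Hochberg adjustment over all genes). After 24 h it was higher for 8 of 8 genes, where 99.9% of all 11858 genes tested were higher and 0% lower. After 1 h it was higher for 6 of 7 genes tested, where 84.7% of 12471 genes were higher and 0.112% lower. The 1 h libraries came from the other experiment, so experiment and labeling cannot be told apart in this contrast. The gene not called was OAZ2, with a log2 change in the odds of a mark of 0.46 ± 0.36 (SE, adjusted p = 0.21), and SAT1 had too few fragments to be tested. The largest of the 7 was AMD1, at 3.87 ± 0.28 (SE, adjusted p = 3.2e-43). The AZIN1 call was lost without replicate 2 of 0 µM PDP (adjusted p = 0.076) and without replicate 2 of acrylonitrile (adjusted p = 0.14).

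Half-lives follow from the marked share if synthesis and decay balance. From 1 h of s4U, AMD1 had the shortest, at 0.92 h ± 0.04 (SD, n = 2), at percentile 3.29 among 12811 coding genes whose median was 3.17 h. ODC1 had the longest, at 6.27 h ± 0.12 (SD, n = 2). OAZ1 was at 4.80 h ± 0.13 and SRM at 5.96 h ± 0.15 (SD, n = 2). OAZ2 was at 4.04 h ± 1.02 and AZIN1 at 4.04 h ± 0.34 (SD, n = 2), within each other's spread, SMS at 4.48 h ± 0.67 and SAT1 at 1.70 h ± 0.21 (SD, n = 2). The 1 h values were larger when the marks seen without s4U were subtracted from the share of the same gene, to 1.02 h for AMD1, 10.7 h for OAZ1, 15.4 h for ODC1 and 16.3 h for SRM, and that of OAZ2 became 30.6 h ± 30.5 (SD, n = 2). With the marks over all genes subtracted instead they were 1.02 h for AMD1, 10.7 h for OAZ1, 22.3 h for ODC1 and 18.8 h for SRM, so the order of ODC1 and SRM was not settled by these data. From 24 h of s4U, the formula gave OAZ1 the longest half-life of the 8, at 20.7 h ± 0.54 (SD, n = 2), followed by SMS at 16.0 h ± 1.41 and SRM at 10.4 h ± 0.17. The level of OAZ1 differed with s4U, however. In acrylonitrile-treated RNA it was 496 and 460 FPM without s4U and 1089 and 1017 FPM with it. The balance was thus not shown for OAZ1, and its 24 h value cannot be read as a decay time. ODC1 (6.89 h ± 0.60), OAZ2 (6.68 h ± 0.32) and SAT1 (6.44 h ± 0.85) were within their spread of each other (SD, n = 2). AMD1 was again shortest, at 5.42 h ± 0.20 (SD, n = 2), but AZIN1 (4.57 and 6.66 h) overlapped it. The 2 labeling times gave different values for the same gene, such as 0.92 h and 5.42 h for AMD1. The formula takes every unmarked fragment as older RNA, and whether newly made fragments went unmarked was not tested. At 24 h AMD1, AZIN1, OAZ2, ODC1 and SAT1 were 89.7% to 97.4% marked. Their 24 h values thus rest on few unmarked fragments and give no firm half-life or order among these genes. T made up 32.9% of the exonic bases of AMD1, 20.3% of those of OAZ1 and 17.8% of those of SRM, and the part of this difference in the marked shares was not tested.

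Whether 24 h of s4U changed the level of these mRNAs was asked in RNA with and without acrylonitrile. The antizyme mRNAs rose in both. OAZ1 stood at 428 and 425 FPM in untreated RNA and at 592 and 586 FPM with s4U, a log2 change of 0.81 ± 0.13 (SE, adjusted p = 0.00037, edgeR with TMM scaling). In acrylonitrile-treated RNA it went from 496 and 460 FPM to 1089 and 1017 FPM, a log2 change of 1.40 ± 0.14 (SE, adjusted p = 1.5e-05). The libraries did not overlap in either pair. OAZ2 was at 39.4 and 39.3 FPM in untreated RNA and at 94.3 and 82.9 FPM with s4U, a log2 change of 1.52 ± 0.16 (SE, adjusted p = 2e-05). In acrylonitrile-treated RNA it was at 18.3 and 12.5 FPM without and at 30.7 and 25.6 FPM with s4U, a log2 change of 1.13 ± 0.18 (SE, adjusted p = 0.00043). Scaling to the library total or a term for GC content kept these 4 calls, and the OAZ1 change without acrylonitrile was 0.46 with the first and 1.52 with the second.

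AMD1 rose too, from 132 and 132 FPM to 220 and 235 FPM without acrylonitrile, a log2 change of 1.13 ± 0.11 (SE, adjusted p = 8e-06). With acrylonitrile its log2 change was 0.42 ± 0.12 (SE, adjusted p = 0.0097), a call that was lost with scaling to the library total (0.15, adjusted p = 0.38) and with the GC term (0.19, adjusted p = 0.19). SMS fell without acrylonitrile, from 85.3 and 85.1 FPM to 29.0 and 24.1 FPM. This was a log2 change of -1.33 ± 0.15 (SE, adjusted p = 3.1e-05). With acrylonitrile it was 28.5 and 23.9 FPM without and 18.8 and 16.4 FPM with s4U, and the change (-0.31 ± 0.17, SE) was not called (adjusted p = 0.12), although it was with scaling to the library total (-0.57, adjusted p = 0.012) and with the GC term (-0.47, adjusted p = 0.029). In all, 3 of the 8 genes rose and 1 fell without acrylonitrile, where 35.8% of 18914 genes were called higher and 34.7% lower. With acrylonitrile 3 rose and 0 fell, where 33.2% were called higher and 31.1% lower. The interaction of s4U and acrylonitrile was called for 0 of the 8 genes with edgeR, where 4 had an unadjusted p under 0.05, and for 1 with DESeq2. Over all genes edgeR called 1.28% higher and 0.354% lower and DESeq2 1.97% and 0.56%, and 3144 of 18914 had an unadjusted p under 0.05 with edgeR. The nearest with edgeR were AMD1 at -0.71 and SMS at 1.02, both with an adjusted p of 0.056. The SMS interaction was past the threshold with DESeq2 (1.00, adjusted p = 0.039) and without a filter (1.13, adjusted p = 0.00017), so whether the SMS change differed between the 2 kinds of RNA depended on the method. ODC1 was at 134 and 128 FPM in untreated RNA and at 105 and 117 FPM with s4U, and its log2 change on the TMM scale of 0.10 ± 0.12 (SE) was not called (adjusted p = 0.47). AZIN1 was at 60.8 and 69.0 FPM in untreated and at 60.3 and 57.9 FPM in s4U RNA and was not called (0.22 ± 0.16, SE, adjusted p = 0.26), although it was without replicate 2 of s4U (0.33, adjusted p = 0.033). With acrylonitrile its change of -0.45 ± 0.21 (SE) was not called (adjusted p = 0.087), but was with scaling to the library total (-0.72, adjusted p = 0.011) with the GC term (-0.69, adjusted p = 0.022), without replicate 1 or 2 of s4U (-0.47, adjusted p = 0.046) and without replicate 2 of s4U plus acrylonitrile (-0.66, adjusted p = 0.044). SAT1 was not called in either kind of RNA, at -0.08 ± 0.23 (SE, adjusted p = 0.76) and 0.60 ± 0.31 (SE, adjusted p = 0.12), but it was lower without replicate 1 of s4U in RNA without acrylonitrile (-0.51, adjusted p = 0.0044) and higher without replicate 1 or 2 of s4U in RNA with it (0.61, adjusted p = 0.021). The s4U libraries of SRM differed from each other, at 94.3 and 159 FPM. Its log2 change was 0.01 with both, 0.27 (adjusted p = 0.023) without replicate 1 and -0.30 (adjusted p = 0.017) without replicate 2. With the GC term SRM was called higher in both kinds of RNA, at 0.87 (adjusted p = 0.0003) and 1.07 (adjusted p = 0.0001).

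The acrylonitrile step itself was accompanied by changed counts of these genes. Log2 changes of the main fit are on the TMM scale, whereas FPM are per library total. They therefore differ from the ratio of the FPM values beside them. The 2 genes with the most GC were higher and those with the least GC were among the lowest, although SMS (51.6% GC) was lower by more than OAZ2 (49.2% GC) and ODC1 (50.4% GC). SRM (65.1% GC over its exons) was higher with acrylonitrile in RNA without s4U, at 236 and 234 FPM against 158 and 156 FPM, a log2 change of 1.27 ± 0.18 (SE, adjusted p = 0.00017). OAZ1 (63.0% GC) had a log2 change of 0.86 ± 0.13 (SE, adjusted p = 0.00036). AZIN1 (38.7% GC) and AMD1 (39.4% GC) were lower, with log2 changes of -1.83 ± 0.19 and -1.59 ± 0.11 (SE). AMD1 was at 132 and 132 FPM without and at 27.2 and 27.0 FPM with acrylonitrile. SAT1 (-1.72), SMS (-1.01) and OAZ2 (-0.65) were also lower and ODC1 (-0.18) was not called. Thus 2 of 8 were higher and 5 lower, where 29.1% of all genes were called higher and 30.7% lower. In RNA with s4U again 2 were higher and 5 lower, where 31% and 34.1% of genes were called, but there ODC1 (-0.36, adjusted p = 0.026) was among those lower and SMS (0.01) was not called. That ODC1 call was lost without replicate 1 or 2 of acrylonitrile or of untreated RNA or replicate 1 of s4U plus acrylonitrile (adjusted p from 0.061 to 0.26), and the SAT1 call (-1.04) without replicate 1 or 2 of s4U plus acrylonitrile (adjusted p = 0.051 and 0.058). With a GC term in the fit, OAZ1 turned to -0.45 (adjusted p = 0.03) and SRM to -0.25 (adjusted p = 0.2) in RNA without s4U, while AMD1 (-0.64, adjusted p = 0.0021) and AZIN1 (-0.82, adjusted p = 0.011) stayed lower. The OAZ2 call was lost with it (-0.49, adjusted p = 0.053) and without replicate 2 of acrylonitrile (-0.46, adjusted p = 0.11). With scaling to the library total the OAZ1 change was 0.16 and was not called (adjusted p = 0.35), and the median of all genes was -0.76 in place of -0.07. The s4U contrasts above were therefore taken only within RNA that had, or had not, been treated with acrylonitrile.

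**Figure D3:**
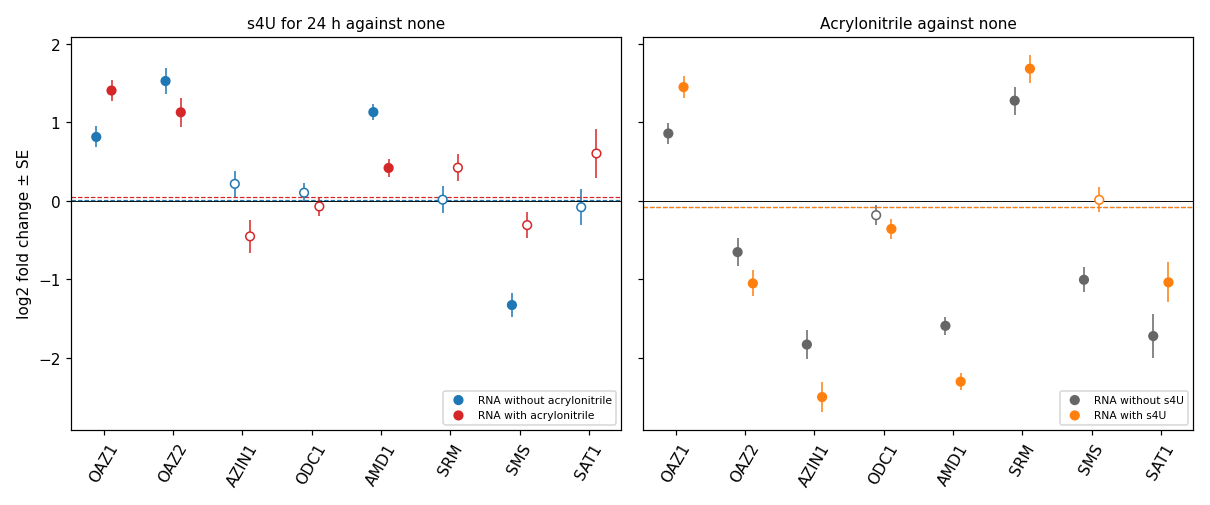
Log2 fold change (y axis, ± SE) of total counts for 24 h of s4U (left) and for acrylonitrile (right), each in 2 kinds of RNA. Filled points passed an adjusted p of 0.05, open points did not, and dashed lines are medians of all genes tested. OAZ1 and OAZ2 are filled and above 0 in both kinds of RNA at left, and OAZ1 and SRM are the genes called higher with acrylonitrile, which the GC term ended for both.

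The PDP experiment asked which mRNAs change after a short PDP treatment. In total RNA per fragment of the library, 5 of the 8 genes were higher and 2 lower at 8 µM than at 0 µM, where 51.8% of 15473 genes were called higher and 8.71% lower. At 4 µM 5 were higher and 2 lower, where 51.4% of genes were higher and 6.99% lower, and the SRM call there was lost without replicate 1 or 2 of 0 µM or replicate 1 of 4 µM (adjusted p from 0.071 to 0.14) and the SAT1 call without replicate 1 of 0 µM (0.54, adjusted p = 0.17) or of 4 µM (0.53, adjusted p = 0.14). The median of all genes was itself shifted by 0.33 at 8 µM and by 0.32 at 4 µM (log2). On the TMM scale, which centres the genes near 0, 27.8% of genes were higher and 26% lower at 8 µM, and 26.2% and 24.9% at 4 µM. With the GC term the shares were 14.6% and 24.8% at 8 µM, and 14.2% and 23% at 4 µM. AZIN1, whose product protects ornithine decarboxylase, was among the genes that rose. It was at 8.90 and 7.95 FPM with 0 µM, at 21.4 and 19.04 FPM with 4 µM and at 19.9 and 20.0 FPM with 8 µM PDP. Both doses lay above the 0 µM libraries, and their ranges overlapped. Its log2 change at 8 µM was 1.25 ± 0.13 (SE, adjusted p = 6.8e-10), 0.96 on the TMM scale and 0.57 with the GC term, and it was called in all 3. Its log2 change at 4 µM was 1.27 ± 0.13 (SE). AMD1 was at 21.5 and 24.2 FPM with 0 µM and at 43.7 and 46.2 FPM with 8 µM, a log2 change of 0.97 ± 0.10 (SE, adjusted p = 1.4e-10), 0.68 on the TMM scale and 0.31 with the GC term. At 4 µM its log2 change was 0.80 ± 0.10 (SE), which the GC term lost (0.18, adjusted p = 0.11). Fragments without a mark were also higher at 8 than at 0 µM, at means of 17.2 and 7.10 FPM for AZIN1 and 32.3 and 10.7 FPM for AMD1. Total RNA also holds RNA made before the labeling hour, and whether these rises arose within that hour was not tested.

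OAZ1 was lower in total RNA, at 652 and 658 FPM with 0 µM, 557 and 581 FPM with 4 µM and 559 and 551 FPM with 8 µM PDP. Its log2 change at 8 µM was -0.24 ± 0.04 (SE, adjusted p = 1.2e-05), -0.53 on the TMM scale and -0.19 with the GC term. ODC1 was not called in FPM (124 and 123 FPM with 0 µM, 125 and 130 FPM with 8 µM, log2 change 0.05 ± 0.06, SE, adjusted p = 0.49), but was lower on the TMM scale (-0.24, adjusted p = 0.0014) and with the GC term (-0.33, adjusted p = 5.6e-05). OAZ2 (0.42) and SMS (0.50) were called higher in FPM, and SRM was called lower (-0.17), which was lost without replicate 2 of 0 µM (-0.16, adjusted p = 0.05). With TMM scaling OAZ2 (0.13) was no longer called, and with the GC term neither OAZ2 nor SMS nor SRM was. SAT1 had a log2 change of 1.14 ± 0.25 (SE) on 16 and 25 fragments with 0 µM, a call that was lost with the GC term (0.57, adjusted p = 0.075). Between 8 and 4 µM 0 of the 8 genes were called with edgeR or with DESeq2 and 2 had an unadjusted p under 0.05 (edgeR), where 0.233% of genes were higher and 0.0905% lower.

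Labeled RNA is the name given here to the marked fragments, which hold those made during the hour with s4U together with a background of marks that is also seen without s4U. In acrylonitrile RNA without s4U the marked share was 7.54% and 7.79% for OAZ1, 6.93% and 7.31% for SRM and 6.30% and 6.38% for ODC1. With 0 µM PDP it was 13.7% and 13.2%, 10.8% and 11.2%, and 10.6% and 10.3%, so for these genes the share without s4U, which was measured in the other experiment, was larger than the increase above it. OAZ1 was at 89.2 and 87.0 labeled FPM with 0 µM, 60.1 and 61.6 with 4 µM and 57.5 and 51.9 with 8 µM PDP, with log2 changes of -0.53 ± 0.07 and -0.68 ± 0.07 (SE, adjusted p = 7.7e-12 and 2.8e-18). SRM was at 55.8 and 58.4 labeled FPM with 0 µM, 40.2 and 41.2 with 4 µM and 33.5 and 32.1 with 8 µM, with a log2 change of -0.80 ± 0.08 (SE, adjusted p = 2.4e-19) at 8 µM. No library of a dose overlapped those of 0 µM for these 2 genes. At 8 µM the SRM share was 7.16% and 7.01%, within the range of acrylonitrile RNA without s4U, so the SRM level there was at background and its changes cannot be read as a measure of newly made SRM RNA. The OAZ1 share at 8 µM was 10.3% and 9.42%. Both changes were lost with the GC term, at -0.10 (adjusted p = 0.31) for OAZ1 and -0.14 (adjusted p = 0.16) for SRM at 8 µM. SRM was also lower with 8 than with 4 µM (-0.31 ± 0.08, SE, adjusted p = 0.0036), the 1 gene of the 8 so called, where 4.92% of genes were lower and 0.701% higher. That call was lost with TMM scaling (-0.22, adjusted p = 0.14), with the GC term (-0.15, adjusted p = 0.41) and without replicate 2 of 4 µM (-0.29, adjusted p = 0.053).

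AZIN1 labeled RNA was at 1.33 and 1.33 FPM with 0 µM, 2.25 and 3.05 with 4 µM and 2.68 and 2.88 with 8 µM. Its log2 change was 1.06 ± 0.31 (SE, adjusted p = 0.0026) at 8 µM and 0.83 (adjusted p = 0.037) with the GC term, and it was 0.99 ± 0.30 (SE, adjusted p = 0.0066) at 4 µM, where the GC term (0.77, adjusted p = 0.07) lost it, as did leaving out replicate 1 or 2 of 0 µM or replicate 2 of 4 µM (adjusted p from 0.059 to 0.103). The 0 µM libraries held 13 and 14 labeled AZIN1 fragments. Counting both directions, 2 of 8 genes were higher and 2 lower at 8 µM, where 10.3% of 14124 genes were higher and 27.5% lower, and 1 was higher and 2 lower at 4 µM, where 9.24% were higher and 19.9% lower. On the TMM scale 17.5% of genes were higher and 19.9% lower at 8 µM, and 12.3% and 16.5% at 4 µM. With the GC term the shares were 8.16% and 16.9% at 8 µM, and 5.59% and 12.6% at 4 µM. The second gene higher at 8 µM was SAT1 (1.04 ± 0.42, SE, adjusted p = 0.038), a call lost without any 1 of the 4 libraries of 0 and 8 µM. Labeled AMD1 did not differ beyond its error, at 11.2 and 13.2 FPM with 0 µM and at 12.7 and 12.7 FPM with 8 µM (0.06 ± 0.13, SE, adjusted p = 0.76). OAZ2 (-0.38 ± 0.24, SE), ODC1 (-0.26 ± 0.13) and SMS (-0.01 ± 0.20) were not called at 8 µM, with adjusted p of 0.22, 0.11 and 0.96. ODC1 was called without replicate 2 of 8 µM (-0.48, adjusted p = 0.011).

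For AMD1 the labeled share itself fell. It was 51.9% and 54.3% with 0 µM, 30.1% and 31.5% with 4 µM and 29.0% and 27.5% with 8 µM PDP. The libraries of 0 µM lay above all others. The change of labeled against unlabeled fragments was -1.53 ± 0.17 (log2, SE, adjusted p = 5.9e-15) at 8 µM and -1.36 ± 0.17 (SE, adjusted p = 3.6e-12) at 4 µM. The ratio of labeled to unlabeled fragments fell for the median gene too, by 0.58 at 8 µM and by 0.48 at 4 µM (log2). In this ratio 6 of the 8 genes were called lower at each dose, where 54% and 45.9% of all genes were lower and 0.637% and 0.262% higher. At 8 µM they were OAZ1 (-0.50), OAZ2 (-0.92), ODC1 (-0.35), SRM (-0.69), SMS (-0.58) and AMD1, and AZIN1 (-0.22) and SAT1 (-0.14) were not called. The OAZ2 share was 8.95% and 10.0% at 8 µM, against 9.86% and 17.1% in acrylonitrile RNA without s4U. It thus did not exceed the range of OAZ2 marks seen without s4U, which rest on 218 fragments. Over all genes 7.63% of fragments were marked without s4U, and the OAZ2 share at 8 µM was above that value. The OAZ2 change therefore cannot be read as a measure of newly made OAZ2 RNA. The count was 4 to 6 at each dose when 1 library was left out. At 8 µM the ODC1 call was lost without replicate 1 or 2 of 0 µM or replicate 1 of 8 µM (adjusted p from 0.073 to 0.42), the SMS call without replicate 1 of 0 µM (adjusted p = 0.16) or of 8 µM (adjusted p = 0.073) and the OAZ2 call without replicate 2 of 0 µM (adjusted p = 0.18). At 4 µM the calls of OAZ2, ODC1 and SMS were each lost without 2 or 3 of the 4 libraries of 0 and 4 µM. On the TMM scale the AMD1 change was -0.96 (adjusted p = 3.1e-06) at 8 µM and -0.88 (adjusted p = 3.2e-05) at 4 µM, and with the GC term -0.95 and -0.83. It was the 1 gene of the 8 that remained called on either scale, where 10.2% of genes were lower and 6.05% higher with TMM scaling at 8 µM, and 5.69% and 4.01% at 4 µM. With the GC term 8.44% were lower and 6.43% higher at 8 µM, and 5.04% and 4.39% at 4 µM. Between the doses SRM, whose share was at background at 8 µM, was the 1 gene called, lower with 8 than with 4 µM (-0.30 ± 0.07, SE, adjusted p = 0.0014), where 4.34% of genes were lower and 0.163% higher. TMM scaling (-0.21, adjusted p = 0.14) and the GC term (-0.14, adjusted p = 0.54) lost it. Depth, the share in genes and base composition of the libraries moved with the dose, and their part in these results was not tested beyond these scales.

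**Figure D4:**
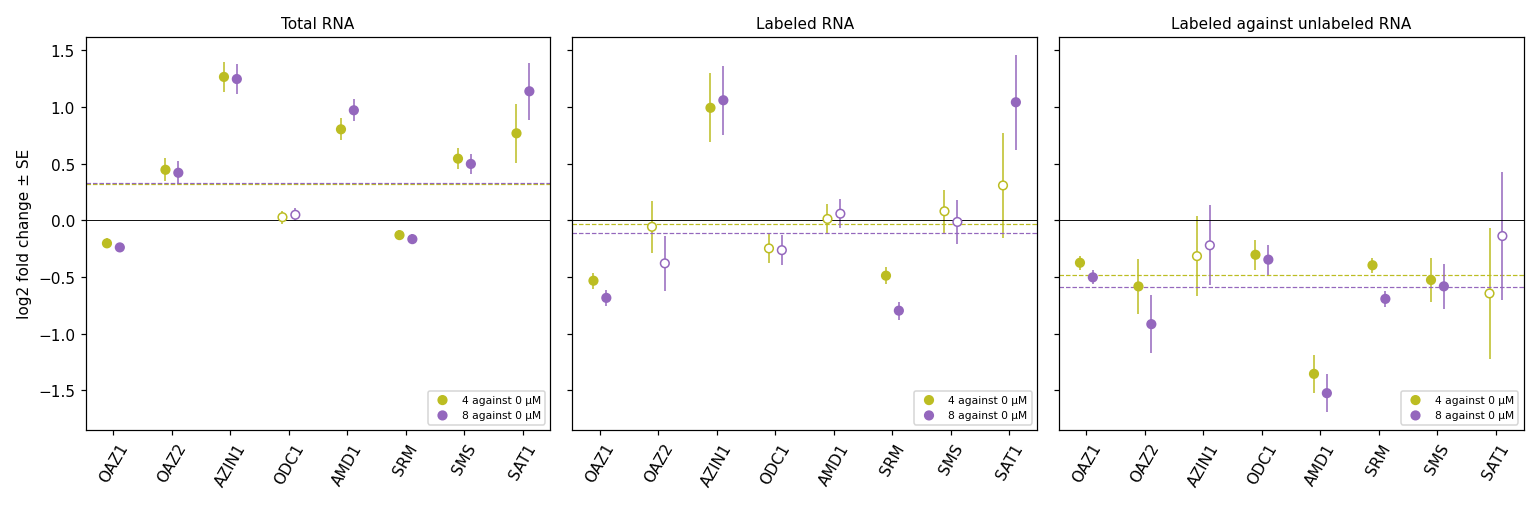
Log2 fold change (y axis, ± SE) of 4 and 8 µM against 0 µM PDP for total RNA, labeled RNA and labeled against unlabeled RNA, scaled to the fragments of the library. Filled points passed an adjusted p of 0.05, open points did not, and dashed lines are medians of all genes. AZIN1 lies above the median line in total RNA and AMD1 far below it at right.

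The window of 4000 bases after the annotated end of OAZ1 held more fragments at the higher doses. It held 4 and 1 fragments with 0 µM, 29 and 32 with 4 µM and 76 and 50 with 8 µM PDP, which is 0.41 and 0.09 FPM, 1.31 and 1.43 FPM and 3.40 and 2.72 FPM. The 3 doses did not overlap. The log2 change was 3.61 ± 0.46 (SE, adjusted p = 8.6e-12) at 8 µM, a 12.2-fold rise, and 2.44 ± 0.54 (SE, adjusted p = 0.00014) at 4 µM. It was 1.17 ± 0.25 (SE, adjusted p = 0.00051) between 8 and 4 µM, a difference that was not past the threshold with DESeq2 (1.198, adjusted p = 0.28), with limma on log2(FPM + 0.1) (1.10, adjusted p = 0.19) or without replicate 1 of 8 µM (0.99, adjusted p = 0.1). The changes from 0 µM kept their call in each of these. Of 2173 windows tested, 11.5% were higher and 24.3% lower at 8 µM, 6.86% and 18.2% at 4 µM and 3.41% and 1.47% between the doses. On the TMM scale 16.6% were higher and 16.8% lower at 8 µM and 9.53% and 11.3% at 4 µM, and the OAZ1 changes were 3.83 and 2.63. The size rests on 5 fragments with 0 µM: it was 2.89 without replicate 2 and 4.93 without replicate 1 of that group at 8 µM, and 1.73 and 3.77 at 4 µM. Per 1000 fragments of the OAZ1 gene, the window held 0.63 and 0.14 fragments with 0 µM, 2.35 and 2.47 with 4 µM and 6.08 and 4.94 with 8 µM. The window thus held few fragments beside the gene itself.

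No gene on the same strand lies in that window. C19orf35 lies there on the other strand, and held 0 and 0, 4 and 3, and 2 and 2 fragments at the 3 doses. The methods give directional libraries and alignment with a strand setting, but neither they nor the labels say whether counting used strand. SRM, the other member with a window that could be tested, held 15 and 20, 39 and 43, and 33 and 47 fragments, and its log2 change was 0.20 ± 0.31 (SE, adjusted p = 0.66) at 8 µM. The windows of the other 6 genes held 11 fragments or fewer in each library, and that of OAZ2 held 0 in all 6. The window before the gene start could be tested for ODC1 and SRM, and 0 of these 2 were called, or had an unadjusted p under 0.05, with edgeR in any of the 3 contrasts, where 3.66% of 3715 windows were higher and 22.9% lower at 4 µM, 6.97% and 28.5% at 8 µM and 0.404% and 0.296% between the doses. By the fold limits of the study, applied between libraries of the same replicate number (at least 1.5-fold more in the window, total within 1.2-fold, window at 0.2 FPKM or more), OAZ1 was the 1 of the 8 genes that met them. They were met by 10 of 14852 coding genes with no same-strand neighbour in the window (0.0673%). The 14852 include genes whose levels were too low to pass. OAZ1 was close to the limit on total, with log2 ratios of -0.23 and -0.18 at 4 µM and -0.22 and -0.26 at 8 µM. The median gene in total RNA itself changed by more than 1.2-fold on this scale (log2 0.32 at 4 µM and 0.33 at 8 µM). The rule was not applied on the TMM scale, on which the total of OAZ1 fell further. The paper reports far more genes with raised downstream levels, so its gene list was not reproduced here. The reason for this difference was not tested. The count here therefore does not show how rare such genes are under the rule as the paper applied it. None of the 8 met the fold limits for lowered labeled RNA in every library, which 3.43% of 18911 coding genes did. The 18911 too include genes whose levels were too low to pass.

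The end of OAZ1 and its first downstream G-quadruplex motif are shown because the window begins there. A motif was 4 runs of at least 3 G with loops of 1 to 7 bases, searched on the strand of the gene and on the other strand. The end of the gene (GRCh37 chr19:2273458-2273487, plus strand, last exon) carries the poly(A) signal AATAAA in capitals. The motif, with its runs of G in capitals, is at chr19:2273549-2273575, from base 62 after the gene end.
OAZ1 end: tccaaaagccAATAAAgtgattacacccga
OAZ1 motif: GGGccctGGGtggaGGGGtcgcGGGGG

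The OAZ1 window held 3 motifs on the strand of the gene, and 31.4% of windows of 20345 coding genes held at least 1. OAZ2 held 2, although its window had no fragments, and the other 6 held 0. A match of letters describes the window and does not show a structure or a site of action.

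**Figure D5:**
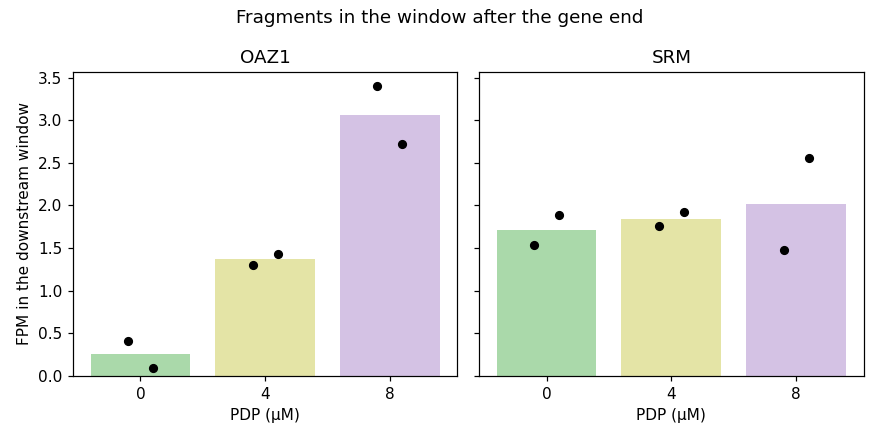
FPM in the window after the gene end (y axis) of OAZ1 and SRM at 0, 4 and 8 µM PDP (x axis). Points are libraries and bars are means of 2. OAZ1 rises from 0.41 and 0.09 FPM to 3.40 and 2.72 FPM, and the SRM libraries overlap.

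A list of 28 other genes of polyamine supply, transport and use was followed in the same fits. With 24 h of s4U, 12 of 27 tested were higher and 7 lower without acrylonitrile, and 7 were higher and 6 lower with it. Over all genes the shares were 35.8% and 34.7% without and 33.2% and 31.1% with acrylonitrile. DOHH, which completes hypusine on the translation factor EIF5A, was higher in both (2.05 and 1.94), as was EIF5A itself (1.74 and 1.48). PAOX, a polyamine oxidase, was lower in both (-3.07 and -3.46), but was scarce, at 0.515 FPM in its lowest library. At 8 µM PDP, 3 of 24 were higher and 7 lower in labeled RNA, beside 10.3% and 27.5% of all genes. Those with the largest change in each direction were DOHH (-1.22) and EIF5A2 (1.39). EIF5A2 had a median of only 3.85 FPM in total RNA, and values with the GC term are not given here for either gene. In total RNA 13 of 26 were higher and 3 lower, beside 51.8% and 8.71% of all genes (27.8% and 26% on the TMM scale, 14.6% and 24.8% with the GC term), with a median log2 change of 0.27 beside 0.33 over all genes.

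The genes whose total level followed OAZ1 most closely over the 14 libraries, centred within each experiment, were PRDX4 (Pearson r = 0.98), RPS2 (0.98) and PRKCSH (0.97), among 9604 genes. For ODC1 they were MRPS6, SESN3 and ISOC1 (r = 0.98 to 0.99), and for AMD1 UQCC1, RP11-474G23.1 and NLK (r = 0.99). These values describe libraries that share the acrylonitrile step and differ in depth. OAZ1 overlaps JSRP1 on the other strand, which had 4 to 63 fragments, and the pseudogenes AMD1P1, SRMP1 and SRMP2 had at most 1 fragment in a library.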

How the data were processed

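Polyadenylated RNA of HEK293T cells was sequenced in 14 libraries. Per the labels and methods, the authors trimmed reads with cutadapt 1.18, kept 1 of identical reads, removed rRNA reads and aligned the rest to hg19 (GRCh37) with HISAT2 2.1.0. The deposited tables hold fragment counts per gene (all, with a mismatch, and in windows beside the gene), the same counts as RPM (here FPM, per 1000000 fragments of the library), and half-lives, which were recomputed here from the counts. For the conversion experiment the deposited tables list fragment counts by number of mismatches, which were summed per gene. The members and lists were chosen with earlier results of these data known.

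Counts were tested with edgeR 4.0.16 (quasi-likelihood, Benjamini-Hochberg, adjusted p under 0.05) over all genes, with 1 fit per experiment. PDP fits used the fragments of the library as offset and genes with a mean of at least 1 FPM in total RNA, 0.5 FPM in labeled RNA or 0.5 FPM in windows. Conversion fits used TMM scaling and filterByExpr. Shares needed 20 fragments per library. Alternatives were TMM scaling, DESeq2 1.42.0, limma 3.58.1 on log2(FPM + 0.1) or log2(FPM + 1), no filter, a replicate block, each library left out, a GC spline with 6 degrees of freedom (for the PDP experiment chosen after the data were seen), background subtraction and other lengths. Scripts were tested on simulated data. By the rule for named genes the text gives the 8 members, up to 6 other pathway genes called with the largest change, and the 3 most similar genes for OAZ1, ODC1 and AMD1. Replicate numbers were not used to pair the samples in the main fits. The authors' FPKM formula was used with lengths from GENCODE on GRCh37. Intervals cover counting error only.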

Additional observations from a re-analysis of the deposited data

Results flagged for a closer look

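A result lay in counts outside the main measurements, those of the windows before gene starts. The window before the start of MAT2A, which encodes a methionine adenosyltransferase of the pathway list, held 0.92 and 1.42 FPM with 0 µM, 2.07 and 2.69 FPM with 4 µM and 2.82 and 2.39 FPM with 8 µM PDP. It was above the 0 µM libraries at both doses, with log2 changes of 1.01 at 4 µM (edgeR, adjusted p = 0.011) and 1.15 at 8 µM (adjusted p = 0.0023). This test was added after the data were seen, and over all 3715 windows tested 3.66% were higher and 22.9% lower at 4 µM and 6.97% and 28.5% at 8 µM, with median log2 changes of -0.31 and -0.36. MAT2A was the 1 called of 5 testable windows of the pathway list, beside 0 of 2 of the members. Its window held 9 and 15 fragments with 0 µM. Other scalings, leaving out a library and neighbouring genes were not examined for these windows.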

How the results depend on the processing

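Depth limits the PDP comparisons, since the libraries of 0 µM held fewer fragments than those of 4 and 8 µM. SAT1 had 16 and 25 fragments there, labeled AZIN1 13 and 14 and the OAZ1 window 4 and 1. With 2 libraries a group, leaving out 1 leaves a lone library that is assumed to vary like the other groups. The cause of the changes below was not tested.

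With the GC term, acrylonitrile was called higher for 0 members in RNA with or without s4U, and OAZ1 (-0.45) and SRM (-0.25) turned negative without s4U, as did OAZ1 (-0.046), SMS (-0.16) and SRM (-0.044) with s4U. In labeled RNA the members higher and lower became 0 and 0 at 4 µM and 1 and 0 at 8 µM, and the member lower between the doses became 0. AMD1 turned to -0.21 and SRM to 0.0047 at 4 µM, AMD1 to -0.17 and SMS to 0.066 at 8 µM, and OAZ1 to 0.0099 and ODC1 to 0.051 between the doses. In labeled against unlabeled RNA 1 member stayed lower at each dose and 0 between the doses, and signs turned for AZIN1 (0.23), OAZ1 (0.14), ODC1 (0.15) and SRM (0.12) at 4 µM, for AZIN1 (0.37), OAZ1 (0.17), ODC1 (0.20) and SAT1 (0.40) at 8 µM, and for OAZ1 (0.024), ODC1 (0.048) and SMS (0.048) between the doses. In total RNA 1 member was higher at 4 µM and 2 at 8 µM, with ODC1 at -0.35 and -0.33 and OAZ2 at -0.0034 at 8 µM. With s4U, AZIN1 turned to -0.077 without acrylonitrile and 2 members were lower with it.

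With TMM scaling, labeled OAZ2 turned to 0.012 at 4 µM, SMS to 0.14 at 8 µM and ODC1 to 0.072 between the doses, where 0 members were lower. In labeled against unlabeled RNA 1 member was lower at each dose and 0 between the doses, with AZIN1 at 0.16, OAZ1 at 0.10, ODC1 at 0.17 and SRM at 0.080 at 4 µM, AZIN1 at 0.35, OAZ1 at 0.064, ODC1 at 0.22 and SAT1 at 0.43 at 8 µM, and ODC1 at 0.045 and SMS at 0.035 between the doses. In total RNA 3 members were higher at 4 µM, and ODC1 was at -0.27 and -0.24. With DESeq2, labeled RNA had 0 members higher at 4 µM, 1 at 8 µM and 0 lower between the doses, SMS was at 0.12 at 8 µM and ODC1 at 0.066 between the doses, and total RNA had 2 higher at each dose with ODC1 at -0.29 and -0.27. DESeq2 put 1 member higher in the interaction, and the OAZ1 window between the doses was at 1.198 and not called (1.10 with limma on log2(FPM + 0.1)).

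With scaling to the library total, 1 member was higher with acrylonitrile, SMS turned to -0.59 with s4U, AZIN1 (-0.13), ODC1 (-0.24) and SRM (-0.31) turned negative for s4U without acrylonitrile, and 2 members were lower for s4U with it. Without a filter, SMS was at -0.015 for acrylonitrile in s4U RNA and SRM at -0.033 for s4U, labeled RNA had 1 member higher at 8 µM, labeled against unlabeled RNA had 3 lower at 4 µM, s4U with acrylonitrile had 5 higher and the interaction 2. A minimum of 100 fragments left 5 members called after 24 h. The median half-life of the 8 became 9.12 h (own background) or 8.65 h (background of all genes) from 1 h, and 11.5 h with 2 mismatches from 24 h. The median level with the longest coding transcript was 35.2 FPKM in untreated RNA and 15.6 FPKM with 0 µM PDP.

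Leaving out 1 library gave these ranges of members called. Acrylonitrile in s4U RNA had 3 to 5 lower. For s4U, 1 to 2 were lower without acrylonitrile, and 3 to 5 higher and 0 to 2 lower with it. The interaction had 0 to 3 higher and 0 to 3 lower. Labeled RNA had 0 to 1 higher at 4 µM, 1 to 2 higher and 2 to 3 lower at 8 µM and 0 to 2 lower between the doses. Total RNA had 1 to 2 lower and labeled against unlabeled RNA 4 to 6 lower at each dose. The OAZ1 window between the doses ranged from 0.99 to 1.31. The median half-life from 1 h ranged from 4.35 to 4.50 h and the median level in untreated RNA from 25.9 to 26.5 FPKM. Some single-gene values took both signs when 1 library was left out. The log2 changes that did so were for the marked share after 1 h OAZ2 (-0.075 to 0.84), for acrylonitrile with s4U SMS (-0.19 to 0.25), for the downstream window at 4 µM SRM (-0.039 to 0.26) and for the downstream window at 8 µM SRM (-0.22 to 0.57). Others were for the downstream window between the doses SRM (-0.32 to 0.47), for the interaction ODC1 (-0.23 to 0.036), for labeled RNA at 4 µM AMD1 (-0.099 to 0.14) and OAZ2 (-0.32 to 0.29) and for labeled RNA at 8 µM AMD1 (-0.052 to 0.19) and SMS (-0.081 to 0.059). Others were for labeled RNA between the doses AZIN1 (-0.13 to 0.30) and ODC1 (-0.23 to 0.19), for labeled against unlabeled RNA at 4 µM AZIN1 (-0.68 to 0.019), for labeled against unlabeled RNA at 8 µM SAT1 (-0.26 to 0.047) and for labeled against unlabeled RNA between the doses AZIN1 (-0.24 to 0.46), ODC1 (-0.24 to 0.15) and SMS (-0.19 to 0.076). Others were for s4U without acrylonitrile SRM (-0.30 to 0.27) and SAT1 (-0.51 to 0.26), for s4U with acrylonitrile ODC1 (-0.16 to 0.10), for total RNA at 4 µM ODC1 (-0.0073 to 0.061) and for total RNA between the doses AZIN1 (-0.10 to 0.070), ODC1 (-0.013 to 0.056), SMS (-0.11 to 0.016) and OAZ2 (-0.077 to 0.018).

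Replicate numbers were shared by the groups, and deviations of same-numbered libraries correlated at -0.02 to 0.12. The largest were for s4U plus acrylonitrile RNA, at 0.11 with s4U RNA and 0.12 with acrylonitrile RNA. These values cannot tell whether same-numbered libraries shared a culture or batch, and the main fits took them as unpaired. With a replicate block the SRM change with s4U was -0.0058, the interaction had 1 member higher (SMS, 1.03, adjusted p = 0.031) and labeled against unlabeled RNA had 5 lower at 4 µM in place of 6. The OAZ1 window was at 3.60 and 2.44.

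Counts over all genes also moved. At 8 µM, total RNA had 8012 genes higher and 1347 lower, against 4299 and 4024 with TMM scaling, 2846 and 3687 with DESeq2 and 2198 and 3732 with the GC term. At 4 µM it had 7946 and 1081, against 4061 and 3859, 2700 and 3344, and 2143 and 3453. Labeled RNA at 8 µM had 1457 higher and 3883 lower, against 2469 and 2805, 872 and 2003, and 1125 and 2325, and at 4 µM 1305 and 2814, against 510 and 1518 with DESeq2 and 771 and 1735 with the GC term. Labeled against unlabeled RNA at 8 µM had 90 higher and 7625 lower, against 855 higher with TMM scaling, where 10.2% of 14124 genes were lower, and 887 and 1163 with the GC term, and at 4 µM 37 and 6484, against 567 and 804, and 605 and 695. Acrylonitrile without s4U had 5499 and 5804, against 3050 and 3076 with the GC term and 2245 and 9509 with the library total, and with s4U 5855 and 6450, against 3617 and 4061, and 3181 and 9534. The windows had 249 higher and 529 lower at 8 µM, against 145 and 179 with DESeq2, and 149 and 395 at 4 µM, against 67 and 107.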
